A study of Mus musculus with 12 samples.

Results

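The genes described here encode the aminoacyl-tRNA synthetases of the mouse, the enzymes that load each transfer RNA with its amino acid, together with the scaffold factors Eef1e1, Aimp1 and Aimp2. They were listed by name, 39 genes in all, with earlier results of these data known. Each was read from the probe set that carries its symbol alone, taking the one with the highest mean where there were several. Of these, 37 had such a probe set, and all 37 passed the filter on low values, among 11206 genes tested in all. They comprised 18 enzymes of the cytosol, 16 of the mitochondrion and the 3 scaffold factors. Aars was covered only by a probe set shared with Exosc6, and it and Dars were not analysed here. Mars is listed in the table under the symbol Mars1.

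RNA came from germinal centre (GC) B cells of the spleen of female mice. SwHEL B cells, which carry a B cell receptor for hen egg lysozyme, bore the congenic marker CD45.1. The hosts were C57BL/6J mice, which bear CD45.2, and received sheep red blood cells that carried the lysozyme mutant HEL3x as the immunization. On day 10 the donor GC cells (CD45.1+, CD45.2-, IgG1+, CD38 low) were sorted by zone and by affinity. Dark zone (DZ) cells were gated as CXCR4 high and low for CD86, and light zone (LZ) cells had the opposite gate. The 4 groups, DZ_high, DZ_low, LZ_high and LZ_low, had 3 arrays each. Donor origin, the lysozyme receptor, the host strain and the immunization were shared by all of them. The labels state neither the affinity gate nor whether separate mice gave the 3 arrays of each group. The p-values therefore reflect only the variation among these samples, which may be technical. Each group holds 1 array of each of 3 matched sets, defined by a suffix that the sample descriptions share.

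Synthetases supply charged tRNA for protein synthesis. In the cytosol some of them sit in a multisynthetase complex, which in mammals contains the enzymes for arginine, aspartate, glutamine, isoleucine, leucine, lysine and methionine, the fused enzyme Eprs for glutamate and proline, and 3 non-enzymatic factors: Aimp1 (p43), Aimp2 (p38) and Eef1e1 (also known as AIMP3 or p18). Mitochondria use a separate set of enzymes encoded by nuclear genes whose names end in 2; the lysine and glycine enzymes of both compartments come from single genes, Kars and Gars. Genes of several cytosolic synthetases are known targets of the transcription factor Atf4, which is active under amino acid shortage, and of Myc, which is switched on in GC cells that receive T cell help. GC cells divide in the dark zone and are selected by antigen and T cells in the light zone, both of which demand protein synthesis.

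The promoters of 3 members are shown because Eef1e1 and Aimp2 had the widest affinity differences of the scaffold factors over both zones, and Tars is 1 of only 2 members whose window held each of the 3 motifs searched. The sequences are the 250 bases before the annotated start from RefSeq (GRCm38.p6), read 5′ to 3′ on the gene's strand, which is the minus strand for all of them. Eef1e1 lies at chr13:38659029-38659278, Aimp2 at chr5:143909840-143910089 and Tars at chr15:11399659-11399908. Capitals mark CACGTG (the E-box core bound by Myc and related factors), TGATGCAA (a CEBP and Atf4 composite site) and CCAAT, on either strand.
Eef1e1: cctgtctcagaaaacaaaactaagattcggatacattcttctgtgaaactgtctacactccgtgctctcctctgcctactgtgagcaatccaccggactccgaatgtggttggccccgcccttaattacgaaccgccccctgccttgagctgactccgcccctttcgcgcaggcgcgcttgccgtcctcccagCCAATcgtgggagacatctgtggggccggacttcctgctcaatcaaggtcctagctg
Aimp2: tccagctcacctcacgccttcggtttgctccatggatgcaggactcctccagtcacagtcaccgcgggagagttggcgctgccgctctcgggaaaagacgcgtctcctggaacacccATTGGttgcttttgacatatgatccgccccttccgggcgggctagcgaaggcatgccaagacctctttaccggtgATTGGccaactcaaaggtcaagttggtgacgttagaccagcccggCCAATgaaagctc
Tars: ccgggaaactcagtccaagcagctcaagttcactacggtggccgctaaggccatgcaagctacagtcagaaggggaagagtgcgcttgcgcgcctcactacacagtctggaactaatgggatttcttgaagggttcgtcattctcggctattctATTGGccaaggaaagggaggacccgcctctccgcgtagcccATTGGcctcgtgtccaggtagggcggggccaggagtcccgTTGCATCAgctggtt
Promoter windows of 300 bases, 50 of them after the start, matched 28 of the 37 members; Cars, Hars, Lars, Nars, Rars, Vars, Wars, Hars2 and Pars2 were not matched. CACGTG was found in the windows of 4 members (Farsb, Iars, Tars and Ears2; 14.3% of the 28), against 7.15% of all 32851 windows. TGATGCAA was found in Iars, Tars and Yars (10.7%), against 0.895% of all windows. CCAAT was found in 15 members (53.6%), against 37.4%. In Tars the reverse complement of TGATGCAA begins at position -15 from the start, and CACGTG begins at position 20, past the stretch shown. Eef1e1 held a single CCAAT, at position -57, and Aimp2 held 3. A match is a string of letters and not evidence of binding, and factor binding was not measured here. Between high and low affinity LZ cells, Tars differed by 0.46, Yars by 0.11 and Iars by -0.06 on the log2 scale, none of them called.

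Expression is given throughout as the log2 value of a probe set after RMA, and levels of different genes are not compared with each other because each probe set has its own scale. Array medians lay between 5.57 and 5.72, and the correlation between 2 arrays over all probe sets lay between 0.951 and 0.993. A first principal component with 40.1% of the variance parted matched set 3 (scores of 12.5 to 52.9) from sets 1 and 2 (-26.4 to -6.71). B cell markers averaged 10.8 to 11.1 in every array (5 tested of 6 listed) and germinal centre markers 9.51 to 10.1 (6 of 7), so the labelled cell type was met by its markers. Array means over all listed markers with a probe set of their own, those below the filter included, were 4.88 to 5.58 for macrophages, 4.72 to 5.94 for T cells and 5.15 to 6.72 for granulocytes, so granulocyte and T cell means reached above the array medians. The filter was passed by 4 of 10, 2 of 9 and 7 of 10 of the listed markers. Adgre1, Csf1r, Ly6g, Cd3d and Cd4 did not pass the filter. Single markers of these lists reached far above the list means. S100a9 ranged from 6.07 to 10.4, S100a8 from 5.01 to 9.60, Lyz2 from 3.84 to 8.24 and Cd68 from 6.76 to 8.15. Cd3d and Cd3g, both below the filter, reached 7.32 and 7.60. Of the 12 arrays, LZ_low of set 3 was highest in its means of macrophage markers (5.58) and T cell markers (5.94).

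Eef1e1 (probe set 10408762) encodes the smallest scaffold factor, which docks to Mars in the complex. Its values in low affinity LZ cells were 9.12, 9.21 and 8.99 (matched sets 1 to 3 throughout), against 9.74, 9.93 and 10.13 in high affinity LZ cells. In DZ cells they were 9.31, 9.20 and 9.10 at low affinity, against 9.32, 9.77 and 9.80 at high affinity. All 6 high affinity arrays thus lay above all 6 low affinity arrays, which was true of 0.134% of the genes tested, although in the DZ the margin in set 1 was 0.02. The group means were 9.10 ± 0.11 in LZ_low, 9.20 ± 0.10 in DZ_low, 9.63 ± 0.27 in DZ_high and 9.94 ± 0.19 in LZ_high (SD, n = 3). In this order LZ_low and DZ_low differed by 0.10, within their spread, and DZ_high and LZ_high by 0.30 (95% interval -0.07 to 0.68), which was not called. Group accounted for 83.6% of the gene's sum of squares over the 12 arrays and matched set for 3.48%.

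The difference between high and low affinity cells was 0.83 ± 0.17 in the LZ (SE of the limma fit, 95% interval 0.46 to 1.2, 1.78-fold) and 0.43 ± 0.17 in the DZ (0.06 to 0.80, 1.35-fold). Averaged over both zones it was 0.63 ± 0.12, with the high affinity array above the low affinity array in 6 of 6 matched pairs. None of these passed the threshold after Benjamini-Hochberg adjustment over all 11206 genes: limma's adjusted p was 0.945 in the LZ, 0.99998 in the DZ and 0.462 for the mean of the zones, with unadjusted p = 0.00044, 0.027 and 0.00025. Ranked by p, Eef1e1 stood 4th of 11206 genes in the LZ and 6th for the mean of the zones. With matched set as a block the adjusted p was 0.464 in the LZ and 0.284 for the mean. The Eef1e1 difference in the LZ was known when the genes were chosen. Neither it nor the mean of the zones, which includes it, is independent evidence. The LZ difference exceeded the spread between replicate arrays, but not by enough for a call among this many genes. No gene at all was called between affinities (0% of those tested in the LZ, in the DZ and in the mean).

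One alternative changed that outcome. With limma's array weights, Eef1e1 was called in the LZ at 0.78 ± 0.11 (adjusted p = 0.025) and in the mean of the zones at 0.61 ± 0.09 (adjusted p = 0.022), as the only member in either. That fit called 0.919% of all genes in the LZ and 0.464% in the mean. It gave the LZ_high array of set 2 a weight of 9.15 and that of set 3 a weight of 0.213, and the estimation of weights stopped short of its convergence tolerance. It was 1 of 24 alternatives, and in the other 23 the adjusted p in the LZ lay between 0.384 and 1.0. Without matched set 3 the LZ difference was 0.68 and the DZ difference 0.29, with adjusted p of 0.93 and 0.999.

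**Figure D1:**
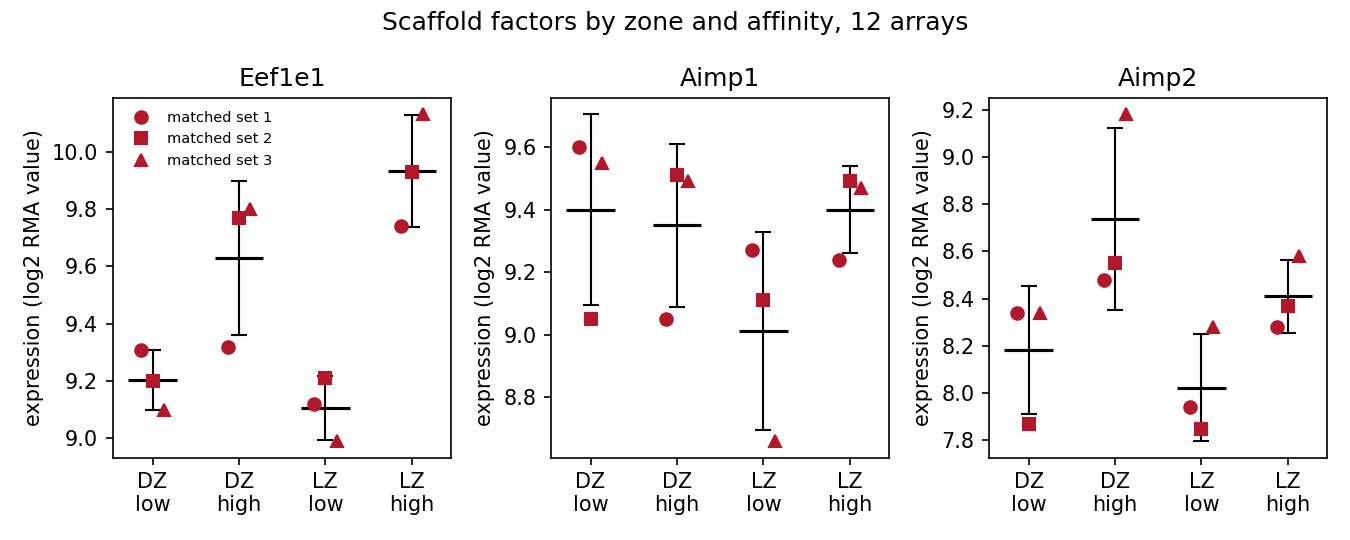
Expression (log2 RMA value) of Eef1e1, Aimp1 and Aimp2 in the 12 arrays by zone and affinity; each point is 1 array with its matched set as the symbol, and bars show the mean ± SD of 3 arrays. All 6 high affinity arrays of Eef1e1 lie above its 6 low affinity arrays, Aimp2 is higher at high affinity in each matched pair, and the Aimp1 groups overlap.

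Aimp2 (probe set 10535502), the factor that holds the complex together, had values of 8.34, 7.87 and 8.34 in DZ_low and 8.48, 8.55 and 9.18 in DZ_high. The DZ groups did not overlap, and the difference was 0.55 ± 0.22 (unadjusted p = 0.029, adjusted p = 0.99998). Without the DZ_high array of set 3 it was 0.33. In the LZ the values were 7.94, 7.85 and 8.28 at low affinity and 8.28, 8.37 and 8.58 at high affinity, a difference of 0.38 ± 0.22 with groups that met at 8.28. With matched set as a block, limma's unadjusted p was 0.0063 in the DZ and 0.038 in the LZ (adjusted p = 0.854 and 0.612). The mean over both zones was 0.47 ± 0.16 and the high affinity array was above its partner in 6 of 6 pairs (adjusted p = 0.852, and 0.350 with matched set as a block). Aimp2 was also lower in the LZ array than in the DZ array of every matched pair, by -0.25 ± 0.16 on average (adjusted p = 0.942), and by -0.14 without the DZ_high array of set 3.

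Aimp1 (probe set 10502232), the third factor and the precursor of a secreted cytokine, was not higher at high affinity in every matched pair. Its values were 9.27, 9.11 and 8.66 in LZ_low and 9.24, 9.49 and 9.47 in LZ_high, a difference of 0.39 ± 0.22 that was absent in set 1 (-0.03) and largest in set 3 (0.81), and that was 0.18 without matched set 3. The low value of 8.66 came from the LZ_low array of set 3, the array with the highest macrophage and T cell marker means, whose part in the result was not tested. In the DZ, Aimp1 values of 9.60, 9.05 and 9.55 at low affinity overlapped those of 9.05, 9.51 and 9.49 at high affinity, and the difference was -0.05 ± 0.22, with a sign that turned on leaving out single arrays. The median affinity difference of the 3 factors was the value of Aimp1 in the LZ (0.39) and of Eef1e1 in the DZ (0.43). It is thus the value of 1 gene in each zone. In the LZ all 3 factors were higher at high affinity (0.38 to 0.83), whereas in the DZ Aimp1 was not.

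Among the enzymes, no affinity difference was called in either zone. In the LZ, 0 of 37 members were called by limma with or without the block, and 2 had an unadjusted p below 0.05 in the high direction, Eef1e1 and the mitochondrial tyrosine enzyme gene Yars2, where 4.16% of all genes did so in either direction. Groups did not overlap for 3 members, all higher at high affinity (Eef1e1, Yars2 and Rars), and for 0 in the other direction; the shares of all genes were 4.32% and 4.49%. Rars, the arginine enzyme of the complex, was 10.66, 10.80 and 11.02 in LZ_low and 11.02, 11.02 and 11.03 in LZ_high, so the groups were parted by less than the last digit shown (difference 0.20 ± 0.16). Yars2 was 6.59, 6.36 and 6.74 in LZ_low and 7.0, 6.84 and 8.39 in LZ_high. Its difference of 0.84 ± 0.35 (adjusted p = 0.999) rested largely on the LZ_high array of set 3, with 0.40 in set 1, 0.48 in set 2 and 1.65 in set 3, and was 0.35 without that array.

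The 18 cytosolic enzymes had a median LZ affinity difference of 0.09, with 11 positive and 7 negative. Tars (threonine) had the largest, 0.46 ± 0.33, followed by Eprs, 0.33 ± 0.21, which was higher in 3 of 3 matched sets (0.31, 0.36 and 0.32). Without the LZ_high array of set 3 the order turned, with 0.19 for Tars and 0.47 for Eprs. With matched set as a block, limma gave Eprs an SE of 0.15, an unadjusted p of 0.056 and an adjusted p of 0.640. At the other end were Cars (cysteine), -0.33 ± 0.31, Farsa (the phenylalanine enzyme's alpha subunit), -0.32 ± 0.26, and Sars (serine), -0.29 ± 0.27. Cars turned to 0.07 without the LZ_high array of set 3, and Sars was -0.02 without the LZ_low array of that set. Farsa was -0.07 without set 3. Farsb, the beta subunit of the same enzyme as Farsa, differed by 0.12. The 16 mitochondrial enzymes had a median of -0.10, with 6 positive and 10 negative, and the lowest was Iars2 (isoleucine) at -0.44 ± 0.37, which turned to 0.16 without set 3. None of these was called.

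The set medians show what these values rest on. For cytosolic enzymes the LZ affinity median was 0.20 in set 1, 0.26 in set 2 and -0.35 in set 3; for mitochondrial enzymes it was 0.07, 0.12 and -0.41. The LZ_high array of set 3 was low for Cars (6.15, against 7.34 and 7.36 in the other LZ_high arrays), Rars2 (6.95, against 8.89 and 8.92), Iars2 (6.38, against 7.19 and 7.29), Nars2 (4.51, against 5.72 and 6.09) and Pars2 (4.59, against 5.71 and 6.04). The Nars2 and Pars2 values in that array lay below every array median (5.57 to 5.72), the level used for the filter. In the same array Tars (9.47), Mars (8.27), Cars2 (8.01) and Yars2 (8.39) were at their highest of the 12 arrays. Without matched set 3 the LZ medians were 0.25 for cytosolic and 0.14 for mitochondrial enzymes, so the sign of the mitochondrial median turned. Without that array alone they were 0.09 and 0.05.

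In the DZ, 0 of 37 members were called with or without the block, and 2 had an unadjusted p below 0.05, both higher (Eef1e1 and Aimp2), against 2.2% of all genes in either direction. Groups did not overlap for Eef1e1 and Aimp2 in the high direction, against 3.29% of all genes. In the low direction they did not overlap for Hars2 and Wars2, against 3.86%. Hars2, the mitochondrial histidine enzyme, was 7.05, 7.11 and 7.24 in DZ_low and 6.78, 6.83 and 6.61 in DZ_high, a difference of -0.39 ± 0.19. Wars2, for tryptophan, was 6.34, 6.39 and 6.49 against 5.95, 6.10 and 6.07, a difference of -0.37 ± 0.21. Both genes were lower at high affinity in each matched set, and neither difference was called (adjusted p = 0.99998 for each).

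Cytosolic enzymes had a median DZ affinity difference of 0.09 with 17 of 18 positive, Iars being the exception, where 50.4% of all genes were positive. The 17 positive values did not recur in the separate sets, whose medians were -0.25, 0.43 and -0.04. The DZ_low array of set 2 had the lowest mean of the cytosolic enzymes, -0.35 relative to each gene's mean over all arrays, and without it the median was -0.07. Iars, the isoleucine enzyme, has a second probe set that differed by 0.18 where the one used differed by -0.13. Kars, the lysine enzyme, had the largest cytosolic value, 0.28 ± 0.20, and was 0.10 without the DZ_low array of set 2. Mitochondrial enzymes had a median of -0.04, with Fars2 the highest at 0.31 ± 0.21, a value that was 0.08 without the same array. Sars2 (-0.24 ± 0.20) and Rars2 (-0.25 ± 0.45) were among the lowest beside Hars2 and Wars2. Rars2 was 0.08 and 0.24 in sets 1 and 2 and -1.07 in set 3, and turned to 0.16 without set 3.

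**Figure D2:**
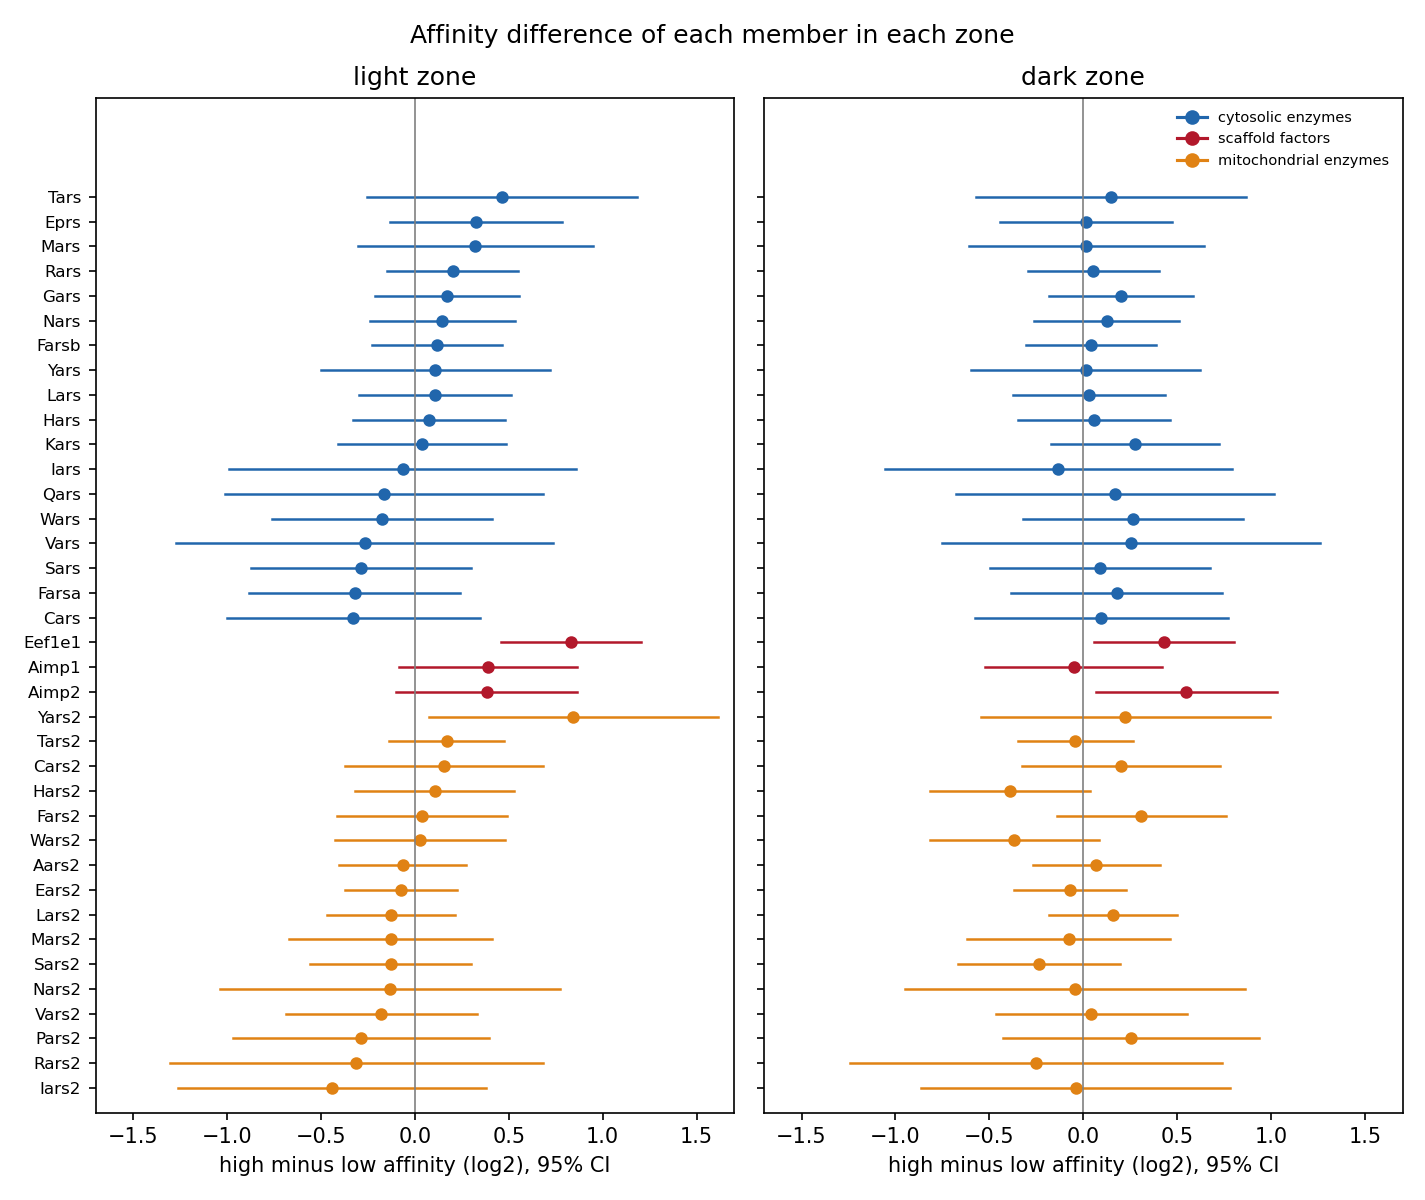
Difference between high and low affinity cells (log2) of each of the 37 members in the light zone (left) and dark zone (right), with 95% intervals of the limma fit; colours mark cytosolic enzymes, scaffold factors and mitochondrial enzymes, and members are ordered by the light zone value within each. Only the intervals of Eef1e1 and Yars2 in the light zone, and of Eef1e1 and Aimp2 in the dark zone, leave out 0, before adjustment.

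Averaged over both zones, 0 of 37 members were called with or without the block, and Eef1e1 and Aimp2 were the only members with an unadjusted p below 0.05, against 5.25% of all genes. The 7 tested enzymes of the multisynthetase complex had a median of 0.13, with 6 of 7 positive (-0.10 to 0.17), and the 11 cytosolic enzymes outside the complex had a median of 0.06, with 7 of 11 positive (-0.12 to 0.31). The scaffold factors, with a median of 0.47 (that of Aimp2), lay outside the range of the complex's enzymes for Eef1e1 and Aimp2 and within it for Aimp1 (0.17). The plasma cell markers that passed the filter (4 of 5, without Prdm1) were also higher at high affinity, 4 of 4 in each zone, with none called. In the LZ they differed by 0.56 (Irf4), 0.41 (Jchain), 0.08 (Sdc1) and 0.02 (Xbp1). Over all 5, Prdm1 included, the array means were 7.23 to 7.43 in DZ_high against 6.73 to 7.11 in DZ_low, and 6.76 to 7.36 in LZ_high against 6.70 to 6.97 in LZ_low. Granulocyte markers were higher at high affinity in the DZ for 7 of 7 tested and lower in the LZ for 6 of 7. Over all 10 listed, the array means were 5.25 to 6.72 in DZ_high, 5.35 to 6.17 in DZ_low, 5.15 to 6.57 in LZ_high and 5.27 to 6.60 in LZ_low. B cell markers were lower at high affinity for 5 of 5 tested in the LZ and 4 of 5 in the DZ. Germinal centre markers were lower for 5 of 6 in the LZ and 3 of 6 in the DZ. The part of any of these markers in the affinity differences was not tested. In sorted bulk samples, fewer cells of a type and less RNA per cell cannot be told apart.

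Whether the affinity difference differed between zones was tested by the interaction of zone and affinity. It was called for 0 of 37 members and 0% of all genes with limma, with or without the block, and 0 members had an unadjusted p below 0.05, against 1.58% of all genes. For Eef1e1 the interaction was 0.40, with a 95% interval of -0.12 to 0.93, so a wider difference in the LZ than in the DZ was not shown. For Aimp2 it was -0.17 and for Aimp1 0.44. Yars2 had the largest value, 0.62 ± 0.50, and by moderated t Hars2 (0.49) and Wars2 (0.39) stood beside Eef1e1 and Aimp1 at the high end. Farsa (-0.50), Lars2 (-0.29), Pars2 (-0.54) and Wars (-0.44) stood at the low end by moderated t, and Vars had -0.52. Single arrays weighed heavily here: without the LZ_high array of set 3, Yars2 was 0.13 and Pars2 -0.12, and without set 3 Farsa turned to 0.06 and Aimp2 to 0.02. The median was 0.02 for cytosolic and -0.06 for mitochondrial enzymes, against -0.004 for all genes.

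The comparison of zones asks whether LZ and DZ cells differ in synthetase expression. No member was called: 0 of 37 in the mean of both affinities, where limma called 0.419% of all genes, and 0 of 37 with matched set as a block, where it called 1.2%. Within high affinity cells the shares of all genes called were 0.0357% without and 0.0803% with the block, within low affinity cells 0.0357% and 0.223%, and no member was among them. At an unadjusted p below 0.05, 2 members were lower in the LZ and 0 higher, against 7.06% of all genes in either direction. No member's 6 LZ arrays lay wholly above or below its 6 DZ arrays, which 0.535% (above) and 0.455% (below) of all genes did.

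The cytosolic enzymes nonetheless lay to 1 side: 15 of 18 had a negative LZ minus DZ value, with a median of -0.14, where 49.0% of all genes were positive and their median was -0.004. Other lists of the pathway also had more negative than positive values: initiation factors 21 of 31 (median -0.05), tRNA processing and modification 24 of 41 (-0.05) and RNA polymerase III 11 of 18 (-0.03). Elongation factors had 4 of 8 negative, Atf4 targets 11 of 22 and mitochondrial translation factors 7 of 18. Of the plasma cell markers, 3 of the 4 tested were lower in the LZ: Jchain by -0.97, which was called (limma's adjusted p = 0.043, with the block 0.0075), Xbp1 by -0.34 and Sdc1 by -0.26, while Irf4 was higher by 0.74. Markers of other lists differed too. Cr2 was higher by 1.02 (limma's adjusted p = 0.043, with the block 0.0060) and Gcsam lower by -0.87 (0.143, with the block 0.037). Tested markers higher in the LZ were 4 of 4 for macrophages, 3 of 5 for B cells, 3 of 6 for germinal centre and 2 of 7 for granulocytes. The part of any of these markers in the zone differences of the enzymes was not tested. The cytosolic median was negative in each matched set (-0.19, -0.09 and -0.15), but within high affinity cells it was 0.02 in set 1, and within low affinity cells it was 0.06 in set 2. The 2 members below an unadjusted p of 0.05 were Gars and Cars. Gars, the glycine enzyme of cytosol and mitochondrion, was 9.95, 10.20 and 10.52 in DZ_high and 10.02, 9.91 and 10.12 in DZ_low, against 9.94, 10.10 and 9.67 in LZ_high and 9.81, 9.74 and 9.65 in LZ_low. It was lower in the LZ in 6 of 6 matched pairs, by -0.30 ± 0.12 (adjusted p = 0.607, with the block 0.423). The Gars difference was -0.66 in set 3, against -0.11 and -0.13 in sets 1 and 2, and without set 3 the value was -0.12. Nars, the asparagine enzyme, was also lower in the LZ in 6 of 6 pairs, by -0.12 ± 0.12. Cars differed by -0.49 ± 0.22 (adjusted p = 0.678) and was lower in 4 of 6 pairs; 1 array, LZ_high of set 3, carried much of this, and without it the difference was -0.29.

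Vars, the valine enzyme, had the lowest zone value of all members, -0.49 ± 0.32, and matched set held 67.6% of its sum of squares. With matched set as a block its unadjusted p was 0.0074 and its adjusted p 0.203, the smallest among the members, and it was lower in the LZ in 5 of 6 pairs. Without the DZ_high array of set 3 its value was -0.28. Farsa (-0.36 ± 0.18) and Hars (-0.24 ± 0.13) were each lower in 5 of 6 pairs. The 3 cytosolic enzymes with positive values were Farsb (0.18), Eprs (0.11) and Tars (0.01), the last of which turned to -0.06 without set 3. Iars was negative by the probe set used (-0.12), while its second probe set differed by 0.03. The 7 enzymes of the complex had a median of -0.12 and the 11 outside it of -0.24. Class I enzymes, whose catalytic domain is a Rossmann fold, had a median of -0.13 (9 of 10 negative) and class II enzymes -0.16 (6 of 8 negative). The fused enzyme Eprs was counted in class I for its glutamate part only, and was the only positive gene there (0.11).

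Mitochondrial enzymes lay around 0, with a median of 0.04 and 9 of 16 positive. Aars2, Nars2 and Pars2 had group means of 5.40 to 5.78, close to the array medians of 5.57 to 5.72 that set the filter. Their differences are therefore read from low signal. Cars2, the mitochondrial cysteine enzyme, was 7.16, 7.05 and 7.27 in DZ_high and 7.05, 6.60 and 7.22 in DZ_low, against 7.22, 7.27 and 8.01 in LZ_high and 7.29, 7.12 and 7.63 in LZ_low. It was higher in the LZ in 6 of 6 pairs, by 0.37 ± 0.17 (adjusted p = 0.719; with the block, unadjusted p = 0.0093 and adjusted p = 0.224). Yars2 (0.45 ± 0.25) and Wars2 (0.20 ± 0.15) followed, and Iars2 had the lowest value at -0.29. Without set 3, Yars2 was 0.07 and Iars2 -0.07, and without the LZ_high array of that set alone Yars2 was 0.21. Cars2 was 0.24 without that array. Within high affinity cells, 2 members had an unadjusted p below 0.05 in the low direction, Cars (-0.70 ± 0.31) and Farsa (-0.61 ± 0.26), and Hars2 in the high direction (0.43 ± 0.19), against 4.53% of all genes. With matched set as a block these and Vars (-0.75 ± 0.21) were below 0.05, 4 of 37 members against 907 of 11206 genes. Vars then had limma's unadjusted p = 0.0047 and adjusted p = 0.313. Within low affinity cells 0 members had an unadjusted p below 0.05, against 4.69%. With the block 1 did, Cars2 (unadjusted p = 0.036), against 866 of 11206 genes.

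**Figure D3:**
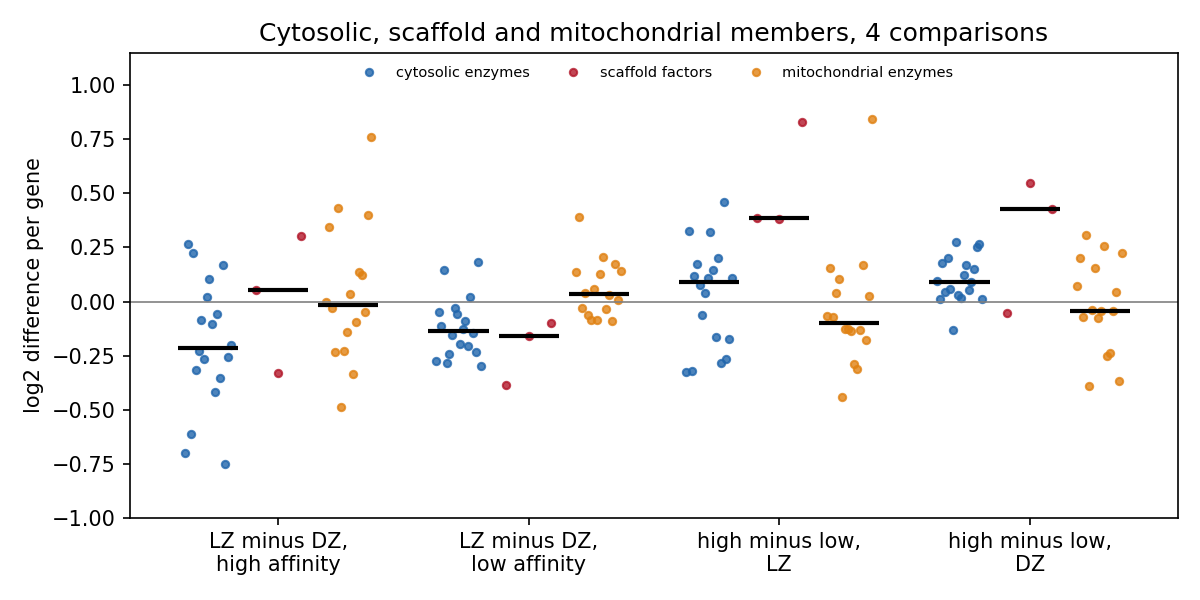
Log2 difference of each gene (points) in 4 comparisons, by cytosolic enzymes (18), scaffold factors (3) and mitochondrial enzymes (16); black bars are the medians. Cytosolic medians lie below 0 in both zone comparisons, at -0.21 and -0.14. The scaffold medians stand at 0.39 and 0.43 in the affinity comparisons, each the value of 1 gene (Aimp1 in the LZ, Eef1e1 in the DZ).

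Cytosolic and mitochondrial enzymes for the same amino acid were set side by side as differences, since their levels are on separate probe scales; 16 such pairs could be formed, with Fars2 and Eprs each in 2 of them. In LZ minus DZ over both affinities, the cytosolic gene was below its partner in 10 of 16 pairs, with a median difference of -0.13. The widest was cysteine: the zone difference of Cars minus that of Cars2 was -0.86, and Cars minus Cars2 was lower in the LZ in 6 of 6 array pairs (-0.74, -0.50 and -1.33 in the sets). Tyrosine (-0.70), valine (-0.55) and histidine (-0.42) were next, and Farsb against Fars2 lay at the other end with 0.28. Tyrosine rested largely on set 3 (-1.38, against -0.48 and -0.24 in sets 1 and 2). The LZ_high array of set 3 was low for Cars and high for Cars2 and Yars2. At high affinity in that set, cysteine gave -2.30 and tyrosine -1.96. At low affinity the cytosolic gene was below its partner in 14 of 16 pairs and at high affinity in 8 of 16; the sign recurred in all 3 sets in 2 pairs at low affinity and in 9 at high affinity. Between affinities the cytosolic gene was above its partner in 9 of 16 pairs in the LZ and in 9 of 16 in the DZ. These pairs share arrays and were not tested.

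Matched set held a median of 26.4% of the sum of squares of the cytosolic enzymes and the 4 groups 23.0%, against 28% and 21.2% over all genes tested. Set 3 was above the other sets for 16 of 18 cytosolic enzymes, with a median of 0.25, for 11 of 16 mitochondrial enzymes (median 0.08) and for 6178 of 11206 genes (median 0.04). Vars was 1.03 higher in set 3 than in the others, Iars and Qars 0.83 each, and Mars 0.60. For Mars, Qars, Iars, Vars and Nars, matched set held 66.4% to 74.0% of the sum of squares. The exceptions were Eprs, which was lower in set 3 by -0.37, and Cars by -0.21. Set 3 minus the others was 0.05 for Eef1e1, 0.0027 for Aimp1 and 0.38 for Aimp2. What the suffix behind the sets marks is not stated.

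**Figure D4:**
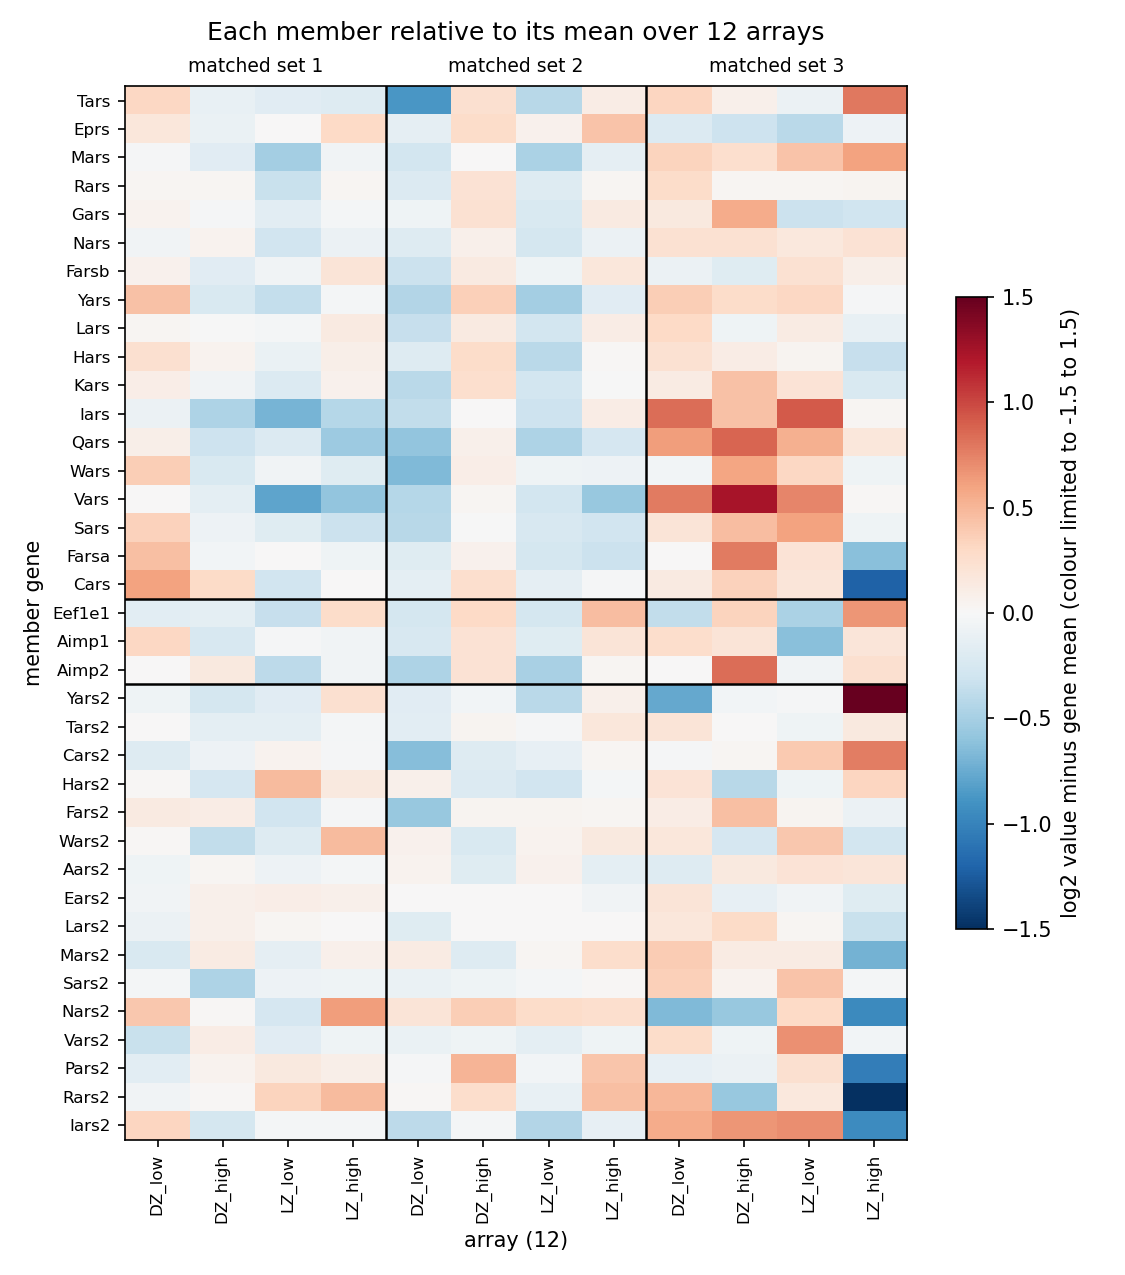
Log2 value of each of the 37 members (rows) minus its mean over the 12 arrays (columns, grouped by matched set); red is above and blue below the gene's own mean, with colour limited to 1.5 either way, and lines part cytosolic enzymes, scaffold factors and mitochondrial enzymes. Vars, Iars, Qars and Mars are high in set 3, and the LZ_high array of that set is low for Cars, Rars2 and Iars2. Eef1e1 follows affinity except in the DZ of set 1, where its high and low affinity arrays are nearly equal (9.32 and 9.31).

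Other genes of the pathway from 6 lists were read in the same fit, and limma called 0 of them in any contrast with or without the block. Translation elongation and termination factors (8 tested) had a median of 0.05 in the LZ affinity comparison with 6 of 8 positive; Gspt1, a release factor GTPase, had the smallest p at 0.56 ± 0.15 (unadjusted p = 0.0038, adjusted p = 0.999), and Etf1, the release factor it partners, followed at 0.36 ± 0.17. Initiation factors (31 tested) had a median of 0.08 in that comparison. Genes of tRNA processing and modification (41 tested) had a median of 0.14 with 27 of 41 positive, led by Rpp30 of RNase P (0.69 ± 0.22), Trmt6 of the tRNA methyltransferase (0.50 ± 0.18) and Ftsj1, a tRNA methyltransferase (0.86 ± 0.33). RNA polymerase III genes (18 tested), which transcribe tRNA, had a median of 0.02; the subunit Polr3g differed by 1.00 ± 0.45 in the LZ and by -0.94 ± 0.45 in the DZ. Mitochondrial translation factors (18 tested) had a median of 0.01.

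Targets of Atf4 outside the synthetases (22 tested) had a median of 0.02 in the LZ and -0.07 in the DZ affinity comparison, with 12 and 10 of 22 positive. Phgdh, the first enzyme of serine synthesis, differed by 0.61 ± 0.19 in the LZ and 0.45 ± 0.19 in the DZ, without overlap of the groups in either, and Psat1, the next enzyme of that pathway, by 0.63 ± 0.25 in the LZ. The amino acid transporter gene Slc7a5 differed by 0.63 ± 0.25 in the DZ, and Chac1, a glutathione-degrading enzyme and stress marker, by -0.42 ± 0.16. Between zones, Slc7a1, a transporter of arginine and lysine, differed by 0.54 ± 0.19 and Atf4 itself by -0.26 ± 0.12. From the initiation list, Eif4ebp1, an inhibitor of cap-dependent initiation, differed by -0.40 ± 0.15 between zones. For these 3 genes limma gave adjusted p of 0.428, 0.737 and 0.561.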

How the data were processed

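Expression of synthetase genes was measured in 12 one-colour arrays of amplified, biotin-labelled cDNA from sorted GC B cells. The deposited values are log2 expression values per probe set, made with RMA by the authors, and RMA and the build mm8 are named in the submitters' processing notes; the log base was read from the range of the values. Gene names came from the platform annotation (1 symbol for 21789 of 28853 probe sets). Testing was limited to the 11206 genes that reached the array's median in 3 or more of the 12 arrays. The 4 group means were estimated together (limma 3.58.1, R 4.3.3) by lmFit, with two-sided moderated tests from eBayes. Benjamini-Hochberg adjustment was over all tested genes, with a threshold of 0.05. The fit was run on simulated data with independent noise for each array, which leaves out the correlation within matched sets. The changes added there were larger than the fitted difference of any member. Values are log2 differences ± SE.

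With group means removed, the correlation of arrays sharing a matched set had a median of 0.41 and a lowest value of -0.07, with 17 of 18 above 0.1; for 11 of 12 arrays the best match was in their own set. Set as a fixed block is an alternative. The number of arrays limits the precision.

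The members and lists were chosen with earlier results of these data known. Named are the scaffold factors, the 4 highest and 4 lowest members by moderated t in each contrast, members whose affinity groups do not overlap, pairs for 1 amino acid, and up to 3 genes of each other list with the smallest p. Other members that the text names, such as Vars, Eprs, Tars, Nars and Mars and those singled out in matched set 3, were chosen after their values were seen.

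Alternatives were a fixed or random block, other filters, quantile normalization, median centring, trend and robust variance, array weights, averaged probe sets, only the compared groups, and leaving out each array or matched set 3.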

Additional observations from a re-analysis of the deposited data

How the results depend on the processing

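No member call depended on the processing except under array weights, which called 1 member (Eef1e1) in the LZ affinity comparison, at 0.78, and 1 in the mean of both zones. Under array weights the cytosolic zone median was -0.20, the cytosolic minus mitochondrial LZ affinity median 0.12 and the mitochondrial interaction median 0.18, and Cars in the LZ (0.13), Rars2 in the DZ (0.050), Tars between zones (-0.20) and the interaction of Aimp2 (0.078) changed sign. Under a new quantile normalization Tars between zones was -0.015. The replicate block changed no call of a member. A stricter filter, which left 25 members, gave a mitochondrial median of -0.080 between zones and 0.080 between affinities in the DZ, and a cytosolic minus mitochondrial zone median of -0.061. Without matched set 3, with or without the block, the cytosolic minus mitochondrial LZ affinity median was 0.11, and the sign turned for Iars2 (0.16) and Cars (0.20) in the LZ, Rars2 in the DZ (0.16), Tars between zones (-0.059) and the interactions of Aimp2 (0.017) and Farsa (0.059). Leaving out 1 array at a time moved the cytosolic zone median between -0.25 and -0.088, the mitochondrial one between -0.0060 and 0.072, their difference between -0.25 and -0.086, the cytosolic minus mitochondrial LZ affinity median between 0.024 and 0.22, Cars in the LZ between -0.53 and 0.072, Tars between zones from -0.19 to 0.12, Aimp1 in the DZ from -0.23 to 0.10 and the interaction of Aimp2 from -0.30 to 0.053. Of the medians, 263 values under the alternatives moved by less than their spread over the matched sets and 19 moved by more; of the values of named members, 1039 kept their sign and their side of the threshold and 27 changed sign. Why these values moved was not tested.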
